A study of Mus musculus with 27 samples.

Results

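The unfolded protein response is represented here by 10 genes, the sensors and some of the effectors by which a cell adjusts the folding capacity of its endoplasmic reticulum (ER). They were the rows of the deposited count table with the symbols Ern1, Atf6, Eif2ak3, Xbp1, Herpud1, Sel1l, Edem1, Pdia4, Creld2 and Sdf2l1, 10 of 55483 genes, and all 10 passed the filter on low counts in every comparison. The study treated RAW264.7 cells, a mouse macrophage line, for 6 h and sequenced total RNA together with RNA recovered by ribonucleoprotein immunoprecipitation (RIP) of HuR, an RNA-binding protein that prefers runs of U in its target transcripts. The question, from the series title, was how modulation of HuR alters the response to lipopolysaccharide (LPS), the bacterial wall component sensed by Toll-like receptor signalling.

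The control cells received DMSO, the solvent. The LPS cells received LPS at 1 ug/ml with DMSO. The third group received LPS at 1 ug/ml with TM7nox at 10 uM, one of a set of compounds the labels call tanshinone mimics. No group received TM7nox alone, so every effect of the compound reported here is an effect on cells that also had LPS. Each treatment had 4 total RNA libraries and 4 anti-HuR RIP libraries, numbered as replicates 1 to 4. A control IgG pulldown was sequenced once per treatment, always as replicate 3. Each sample started from the same number of cells, all from the same unmodified line. The labels do not say whether replicates came from separate cultures, so p-values measure the spread between these samples, which may be technical.

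Unfolded protein in the ER lumen is sensed by 3 membrane proteins in animal cells. IRE1 alpha, made by Ern1, is a kinase and ribonuclease that splices Xbp1 mRNA into the form encoding an active transcription factor. ATF6 is cut in the Golgi to release a transcription factor, and PERK, made by Eif2ak3, phosphorylates the initiation factor eIF2 alpha, which lowers general translation and favours translation of Atf4. The targets of these factors include chaperones, disulphide isomerases and the machinery of ER-associated degradation, which moves misfolded proteins to the proteasome. In macrophages, Toll-like receptor signalling is known to engage IRE1 and XBP1. Gene counts show the amount of RNA only, so splicing of Xbp1, cleavage of ATF6 and phosphorylation of PERK were not measured.

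Total counts per library ran from 2728534 to 28285856 for total RNA, from 19816312 to 41449233 for RIP and from 8873091 to 24513902 for IgG. The shallowest library was DMSO total RNA replicate 1, in which counts of the 10 genes ran from 91 for Ern1 to 881 for Edem1. Levels are given as CPM, read counts relative to the library's total, on 1 TMM scale, a scaling that sets the typical gene equal between libraries. All 10 macrophage markers examined passed the filter on low counts in total RNA, where their summed level was 3365 to 6908 CPM. Single markers ran from Mrc1, at no more than 8.72 CPM in any total RNA library, to Lyz2, with group means of at least 1978 CPM. The markers of lymphocytes, natural killer cells, epithelium, fibroblasts and endothelium summed to at most 1.24 CPM, and Epcam was at 0. Replicate 2 of LPS with TM7nox held the lowest total RNA level of its group for 8 of the 10 genes, and replicate 2 of LPS for 6 of 10. The number of the 10 genes called against LPS is given with and without each.

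For levels compared between genes, exon length was merged over all annotated transcripts of a gene, such as 6931 bases for Xbp1 and 1113 for Sdf2l1. The order of levels depends on that length, and which transcripts these cells use was not tested. Per kilobase of exon, the level of total RNA in DMSO was highest for Sdf2l1 at 53.2 ± 15.0 CPM per kb (SD, n = 4). Creld2 followed at 37.7 ± 5.80, Pdia4 at 26.7 ± 3.36, Edem1 at 18.5 ± 1.38 and Sel1l at 17 ± 1.25 CPM per kb. Below these, Xbp1 stood at 13.6 ± 0.870, Atf6 at 12.1 ± 2.12, Herpud1 at 7.62 ± 1.15, Eif2ak3 at 3.70 ± 0.726 and Ern1 at 1.57 ± 0.266. Neighbours in this order overlapped in their ranges for Sdf2l1 and Creld2, Creld2 and Pdia4, Edem1 and Sel1l, and Xbp1 and Atf6. In LPS with TM7nox the order began with Creld2 at 79.1 ± 22.2 CPM per kb and Herpud1 at 67.3 ± 17.8, whose ranges overlapped, and Ern1 at 3.77 ± 0.724 stood above Eif2ak3 at 2.84 ± 0.347.

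LPS alone moved the 10 genes in both directions in total RNA. Herpud1 rose, and Xbp1 rose by a small amount, while Eif2ak3, Atf6, Sdf2l1 and Edem1 fell and the other 4 did not pass the test. A gene is called here when its adjusted p is under 0.05 in edgeR's quasi-likelihood test with Benjamini-Hochberg adjustment over all genes tested. By this rule 6 of the 10 genes were called, 2 higher and 4 lower, where 42% of all 12369 genes tested were called, 20.2% higher and 21.7% lower. The median log2 fold change was -0.13 for the 10 genes and -0.04 for all genes. The groups did not overlap for 5 of the 10 genes, 2 higher and 3 lower in LPS, against 38.7% of all genes tested, 19.8% higher and 18.9% lower.

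Of the sensors, Eif2ak3 (ENSMUSG00000031668, chr6:70821461-70882235 in GRCm39, plus strand) fell furthest. Its total RNA stood at 30.3, 20.1, 22.2 and 21.5 CPM in DMSO replicates 1 to 4 and at 9.58, 10.9, 10.7 and 11.3 CPM in LPS. Every LPS library lay below every DMSO library, and the log2 fold change was -1.17 ± 0.16 (SE; edgeR adjusted p = 4.18e-05). In these bulk samples fewer expressing cells and less RNA per cell cannot be told apart. Atf6 (ENSMUSG00000026663, chr1:170532026-170696208, minus strand) stood at 90.9, 137, 131 and 114 CPM in DMSO and at 76.4, 83.4, 81.8 and 84.2 CPM in LPS. These groups did not overlap either, and Atf6 fell by 0.57 ± 0.12 on the log2 scale (edgeR adjusted p = 0.00131). Ern1 (ENSMUSG00000020715, chr11:106283818-106378686, minus strand) stood at 19.3, 15.2, 16.2 and 12.8 CPM in DMSO and at 18.2, 14.7, 12.5 and 13.9 CPM in LPS. The 2 groups covered nearly the same range, with a log2 fold change of -0.11 ± 0.18 that did not pass the test (edgeR adjusted p = 0.654).

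Xbp1 (ENSMUSG00000020484, chr11:5470606-5483027, plus strand), the transcription factor downstream of IRE1, stood at 87.1, 97.7, 91.0 and 100.2 CPM in DMSO and at 122.6, 114.9, 103.5 and 123.0 CPM in LPS. All LPS libraries lay above all DMSO libraries, by a log2 fold change of 0.27 ± 0.10 (edgeR adjusted p = 0.0401). The call was lost when any 1 of 7 libraries was left out, with DMSO replicates 1 to 4 or LPS replicates 1, 2 or 4 giving adjusted p from 0.0534 to 0.105. Exons of Xbp1 share 1526 bases with Ccdc117 on the opposite strand, which stood at 15.7 ± 2.01 CPM in DMSO, 13.7 ± 0.391 CPM in LPS and 21.2 ± 1.69 CPM in LPS with TM7nox total RNA (SD, n = 4), and whether counting used the strand is not given in the sources used here. Smaller opposite-strand overlaps, of Atf6 with Gm9929, Eif2ak3 with Gm43292 and Herpud1 with Gm15890, involved genes with group means of at most 4.54 CPM.

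Herpud1 (ENSMUSG00000031770, chr8:95113022-95123141, plus strand) makes an ER membrane protein that helps assemble the degradation complex around the ubiquitin ligase HRD1. Its total RNA stood at 25, 26.9, 34.9 and 31.3 CPM in DMSO and at 107, 64.1, 85.6 and 84.4 CPM in LPS. No LPS library came near the DMSO range, and the log2 fold change was 1.5 ± 0.20 (edgeR adjusted p = 3.49e-05). Edem1 (ENSMUSG00000030104, chr6:108805457-108838955, plus strand), a mannosidase-like lectin that directs misfolded glycoproteins to degradation, stood at 187, 164, 186 and 164 CPM in DMSO and at 151, 123, 147 and 141 CPM in LPS. The groups did not overlap, and Edem1 fell by 0.35 ± 0.11 on the log2 scale (edgeR adjusted p = 0.0228); without LPS replicate 2, DMSO replicate 3 or LPS replicate 4 the adjusted p was 0.0774, 0.0622 or 0.059. Sel1l (ENSMUSG00000020964, chr12:91772799-91815982, minus strand), the adaptor of HRD1, stood at 139 to 165 CPM in DMSO and at 128 to 173 CPM in LPS, and its log2 fold change of -0.08 ± 0.15 did not pass the test.

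Among the folding enzymes and cofactors, Sdf2l1 (ENSMUSG00000022769, chr16:16948002-16950252, minus strand), a partner of the chaperone BiP and ER DnaJ proteins, stood at 39.8, 50.9, 70.8 and 75.2 CPM in DMSO and at 34.2, 32.0, 44.2 and 39.8 CPM in LPS. The ranges overlapped, since DMSO replicate 1 stood below LPS replicate 3, and the log2 fold change of -0.69 ± 0.18 passed the test (edgeR adjusted p = 0.00739). Pdia4 (ENSMUSG00000025823, chr6:47770077-47790462, minus strand), a protein disulphide isomerase, stood at 168 to 225 CPM in DMSO and at 132 to 206 CPM in LPS. Creld2 (ENSMUSG00000023272, chr15:88703795-88710890, plus strand), a secreted ER-stress protein with disulphide isomerase activity, stood at 68.5 to 98.7 CPM in DMSO and at 68.7 to 123 CPM in LPS. Neither passed the test, with log2 fold changes of -0.15 ± 0.17 for Pdia4 and 0.21 ± 0.21 for Creld2.

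**Figure D1:**
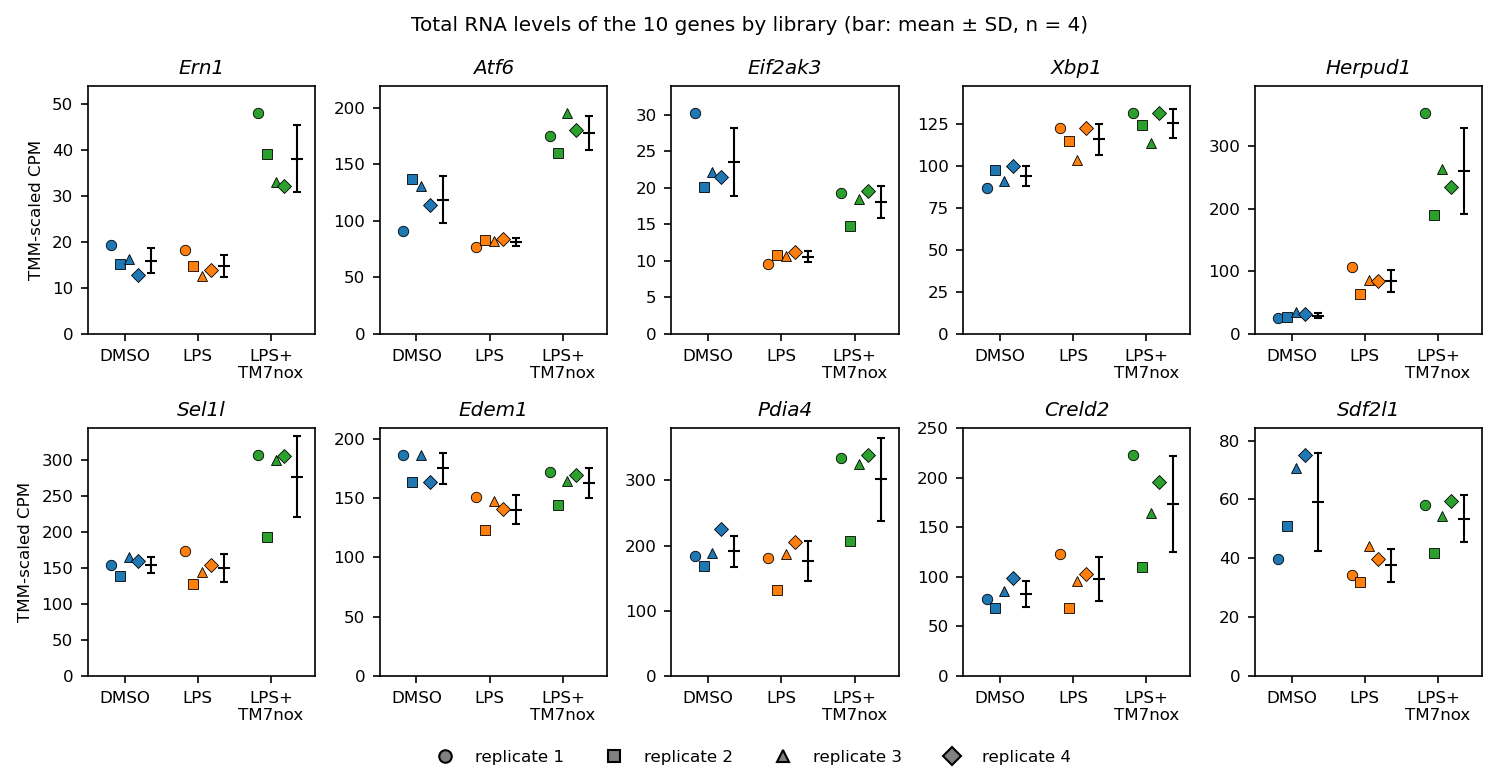
Total RNA level of each of the 10 genes in TMM-scaled CPM (vertical axis, from 0) for 4 libraries of DMSO, LPS and LPS with TM7nox, with marker shapes for replicate numbers and black bars for mean ± SD (n = 4). Herpud1 climbed at both steps, Ern1 rose with TM7nox, and Eif2ak3 and Atf6 were lower in every LPS library than in every DMSO library; LPS with TM7nox replicate 2 (square) stood lowest for 8 genes of its group.

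Adding TM7nox to LPS raised most of the 10 genes. Against LPS, 7 of 10 rose in total RNA and 0 fell, where 13.8% of all genes tested were called, 7.37% higher and 6.4% lower. The 7 were Herpud1, Ern1, Atf6, Sel1l, Creld2, Pdia4 and Eif2ak3, while Sdf2l1, Edem1 and Xbp1 did not pass the test. The median log2 fold change was 0.80 for the 10 genes and -0.003 for all genes tested. Groups did not overlap for 6 of the 10 genes, all higher, against 11.3% of all genes apart in that direction and 10.4% in the other. These comparisons share the 4 LPS libraries with those against DMSO above, so the 2 sets of fold changes are not independent.

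All 3 sensor genes rose with the compound. Ern1 stood at 48.1, 39, 33.0 and 32.2 CPM in LPS with TM7nox, against at most 18.2 CPM in LPS, a log2 fold change of 1.36 ± 0.18 (edgeR adjusted p = 0.000218). Atf6 stood at 175, 160, 196 and 180 CPM, above every LPS library, with a log2 fold change of 1.13 ± 0.12 (edgeR adjusted p = 3.88e-05). Eif2ak3 stood at 19.3, 14.8, 18.4 and 19.6 CPM, again with no overlap with LPS, and its log2 fold change was 0.77 ± 0.16 (edgeR adjusted p = 0.00479). Set against DMSO, Ern1 was higher by 1.25 ± 0.18 and Atf6 by 0.56 ± 0.12 on the log2 scale. Eif2ak3 was still below its DMSO level, by a log2 fold change of -0.40 ± 0.16 at an adjusted p of 0.0468 in edgeR, and this call was lost in 12 of 14 alternatives, among them the scaling by DESeq2's size factors (adjusted p = 0.0702). Without DMSO replicate 1, the highest Eif2ak3 library, that value was -0.25 (adjusted p = 0.114), and without LPS with TM7nox replicate 2, -0.32 (adjusted p = 0.129).

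Xbp1 RNA stood at 132, 125, 114 and 132 CPM in LPS with TM7nox, a range overlapping that of LPS. Its log2 fold change against LPS was 0.12 ± 0.10 (edgeR adjusted p = 0.509), and against DMSO it was 0.39 ± 0.10 (edgeR adjusted p = 0.00509).

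Of the degradation genes, Herpud1 stood at 354, 191, 264 and 235 CPM in LPS with TM7nox. Each of these exceeded every LPS library, and the log2 fold change was 1.61 ± 0.20 (edgeR adjusted p = 0.000119). Against DMSO it came to 3.11 ± 0.21 (edgeR adjusted p = 6.14e-08), which is 8.62-fold. Sel1l stood at 307, 192, 300 and 305 CPM, above all LPS libraries, with a log2 fold change of 0.88 ± 0.16 (edgeR adjusted p = 0.00174). Replicate 2 lay well below the other 3 here. Edem1 stood at 172, 144, 164 and 170 CPM, overlapping LPS, and its log2 fold change of 0.21 ± 0.11 did not pass the test (edgeR adjusted p = 0.265).

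Of the folding genes, Pdia4 stood at 334, 206, 325 and 339 CPM in LPS with TM7nox and rose by a log2 fold change of 0.78 ± 0.17 (edgeR adjusted p = 0.00878). Its replicate 2 exceeded the highest LPS library by under 1 CPM. Creld2 stood at 223, 110, 165 and 196 CPM, a range that met that of LPS only through replicate 2. Its log2 fold change was 0.83 ± 0.22 (edgeR adjusted p = 0.0191), and without LPS replicate 2, LPS with TM7nox replicate 1 or LPS with TM7nox replicate 4 the adjusted p was 0.0625, 0.0551 or 0.0574. Sdf2l1 stood at 58.2, 41.8, 54.3 and 59.5 CPM with a log2 fold change of 0.51 ± 0.18 that missed the threshold (edgeR adjusted p = 0.0822). With the replicate number as a block, the adjusted p for Sdf2l1 was 0.00935, and 8 of the 10 genes were called, where 25% of all genes were.

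Leaving out replicate 2 of LPS with TM7nox left 7 genes called against LPS, where 11.5% of all genes were called. Leaving out replicate 2 of LPS left 6, where 9.72% of all genes were called. With replicates 1 and 2 alone only 1 of the 10 genes, Ern1, was called, and 1.35% of all genes tested; with replicates 3 and 4 alone 8 were called, and 27.9% of all genes. In the comparison of LPS with TM7nox against DMSO, 7 genes were higher and 1 lower, where 47.3% of all genes tested were called, 23.7% higher and 23.6% lower.

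**Figure D2:**
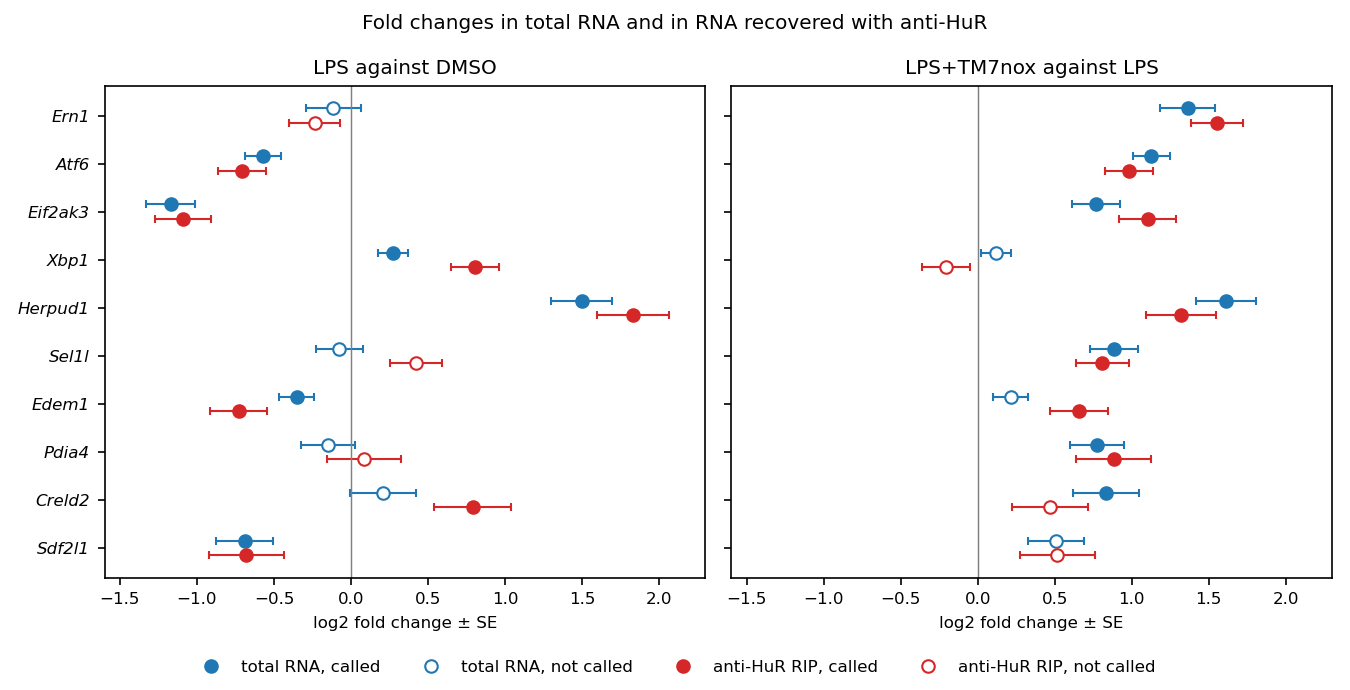
Log2 fold change ± SE (horizontal axis) of each gene for LPS against DMSO (left) and LPS with TM7nox against LPS (right), in total RNA (blue) and anti-HuR RIP (red), with filled points for genes called at an adjusted p under 0.05 in edgeR. In the right panel every total RNA point lies above 0 and Xbp1 in RIP, at -0.20, is the one value below it.

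The promoters of Herpud1 and Creld2 held a match to an ER stress response element, the DNA motif bound by ATF6 and XBP1 together with NF-Y. They are shown because both genes were higher in LPS with TM7nox than in LPS, next to Hspa5, the gene of the chaperone BiP and the classic carrier of this motif. Sequences are from RefSeq, build GRCm38.p6, read along the gene's strand, with the motif in capitals; that build differs from the GRCm39 coordinates above. RefSeq entries of 250 bases before to 50 after the start were matched for 9 of the 10 genes, all except Atf6.

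Herpud1, chr8:94386357-94386407, plus strand, with the motif named ERSE-II (ATTGG, any 1 base, CCACG) at -52 to -42 from the start: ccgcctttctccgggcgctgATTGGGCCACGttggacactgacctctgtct

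Creld2, chr15:88819500-88819558, plus strand, with the motif named ERSE (CCAAT, any 9 bases, CCACG) on the opposite strand at -126 to -108 from the start: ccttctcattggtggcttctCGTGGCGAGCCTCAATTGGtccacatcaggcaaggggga

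Hspa5, chr2:34771913-34772063, plus strand, with TGACGTG at -157 to -151 and ERSE at -65 to -47 from the start: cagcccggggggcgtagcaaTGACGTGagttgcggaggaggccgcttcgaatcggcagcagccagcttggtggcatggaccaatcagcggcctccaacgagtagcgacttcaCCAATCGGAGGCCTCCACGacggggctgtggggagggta

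Both strands of every promoter were searched for these motifs and for TGACGTGG, which contains TGACGTG. Over the 32851 promoters of the RefSeq table, 0.119% held ERSE, 0.0365% held ERSE-II, 0.676% held TGACGTGG and 2.01% held TGACGTG. Of the 9 members with a promoter entry, 2 held any of them. Xbp1, Ern1, Eif2ak3, Edem1, Sdf2l1, Pdia4 and Sel1l had none of these motifs in this window. Of these, Ern1, Eif2ak3, Pdia4 and Sel1l were also called higher in LPS with TM7nox than in LPS, and Xbp1, Edem1 and Sdf2l1 were not. Among 23 ER chaperone and folding genes with an entry, 7 held ERSE and 1 held ERSE-II. A match is a description of the letters and no measure of binding.

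Other genes of the response are described by 5 lists. Of 26 ER chaperones and folding enzymes, 6 rose and 0 fell with TM7nox against LPS, where 7.37% of all genes rose and 6.4% fell. The median log2 fold change was 0.38 for the list and -0.003 for all genes. Hspa5 stood at 3864, 2426, 4088 and 4046 CPM in LPS with TM7nox against 1838, 1303, 1941 and 1977 CPM in LPS. The groups did not overlap, with a log2 fold change of 1.03 ± 0.19 (edgeR adjusted p = 0.00243), and replicate 2 was the lowest in both. Dnajb9, a BiP cochaperone known as an XBP1 target, stood at 89.8 to 119 CPM against 23.7 to 37.7 CPM and rose by 1.75 ± 0.22 on the log2 scale.

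Against DMSO, LPS raised 2 of the same 26 genes and lowered 4, with a median of 0.06. Both shares lie below those of all genes, of which 20.2% rose and 21.7% fell. Dnajb9 rose by a log2 fold change of 1.74 ± 0.23 and Hspa5 by 0.76 ± 0.19. Cnpy3, a chaperone of Toll-like receptors, fell by 1.10 ± 0.27 and Ero1b, an ER oxidase, by 0.74 ± 0.14 on the log2 scale.

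A list of 15 genes around eIF2 alpha phosphorylation held Atf4, Ddit3 (CHOP) and genes known to respond to them. It also held the eIF2 alpha gene Eif2s1, the phosphatase subunit gene Ppp1r15b and the eIF2 alpha kinases other than PERK (Eif2ak1, Eif2ak2 and Eif2ak4), so its counts are not those of PERK targets alone. LPS raised 11 of the 15 and lowered 1, where 20.2% of all genes rose and 21.7% fell, with a median log2 fold change of 1.73. TM7nox against LPS raised 7 and lowered 1, where 7.37% of all genes rose and 6.4% fell, with a median of 1.10. Ddit3, a transcription factor of prolonged stress, stood at 263, 211, 199 and 272 CPM in LPS with TM7nox, at 19.3 to 52.0 CPM in LPS and at 5.93 to 10.6 CPM in DMSO. Its log2 fold change was 2.85 ± 0.28 against LPS (edgeR adjusted p = 2.31e-05), with no overlap between the groups. The symbol Ddit3 had 2 rows in the deposited counts, and only the row of ENSMUSG00000025408 was used for these values. Atf4 stood at 503 to 835 CPM in LPS with TM7nox, at 179 to 414 CPM in LPS and at 77.5 to 148 CPM in DMSO. Trib3, a pseudokinase induced by CHOP, rose by 3.39 ± 0.36 on the log2 scale with TM7nox, and Ppp1r15b, a phosphatase subunit acting on eIF2 alpha, fell by 0.71 ± 0.15. With LPS alone, Nupr1 rose by 4.4 ± 0.25 and Atf3 by 3.66 ± 0.44, and Eif2ak4, the kinase GCN2, fell by 0.92 ± 0.17. The DMSO and LPS groups of Eif2ak4 overlapped. Genes of this list are also known to answer to amino acid shortage and other stresses through other eIF2 alpha kinases, and which kinase acted here was not tested.

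Of 22 tested genes of ER-associated degradation outside the 10, LPS raised 6 and lowered 0, and TM7nox against LPS raised 7 and lowered 0, with medians of 0.21 and 0.35. Of all genes tested, 20.2% rose and 21.7% fell with LPS, and 7.37% rose and 6.4% fell with TM7nox against LPS. Syvn1, which makes HRD1, rose by a log2 fold change of 1.35 ± 0.15 with LPS and by a further 0.78 ± 0.15 with TM7nox. Faf2 rose by 0.57 ± 0.13 with LPS, and Ubxn4 by 0.90 ± 0.13 with TM7nox. Of 23 tested genes of ER translocation and vesicle export, 6 rose with LPS and 2 with TM7nox against LPS, and 0 fell in either. Both shares raised are near those of all genes, 20.2% and 7.37%, while 21.7% and 6.4% of all genes fell. Sec23b and Sec61g rose with LPS by 1.16 ± 0.18 and 0.85 ± 0.31, with DMSO and LPS groups that overlapped for Sec61g. The COPII coat gene Sec24d and the translocon gene Ssr3 rose with TM7nox by 1.38 ± 0.21 and 0.58 ± 0.13.

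The last list held relatives of the sensors, the proteases that cut ATF6 and known substrates of IRE1's RNA decay, of which 14 were tested. Of all genes tested, 20.2% rose and 21.7% fell with LPS, and 7.37% and 6.4% with TM7nox against LPS. TM7nox against LPS raised 2 and lowered 0: Pmp22 by a log2 fold change of 1.5 ± 0.12 and Creb3l2, a relative of ATF6, by 1.29 ± 0.15. LPS raised 3, among them Creb3 by 0.98 ± 0.16 and Traf2, an adaptor that binds IRE1, by 0.54 ± 0.16, and lowered 1, Creb3l2 by 0.51 ± 0.15.

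**Figure D3:**
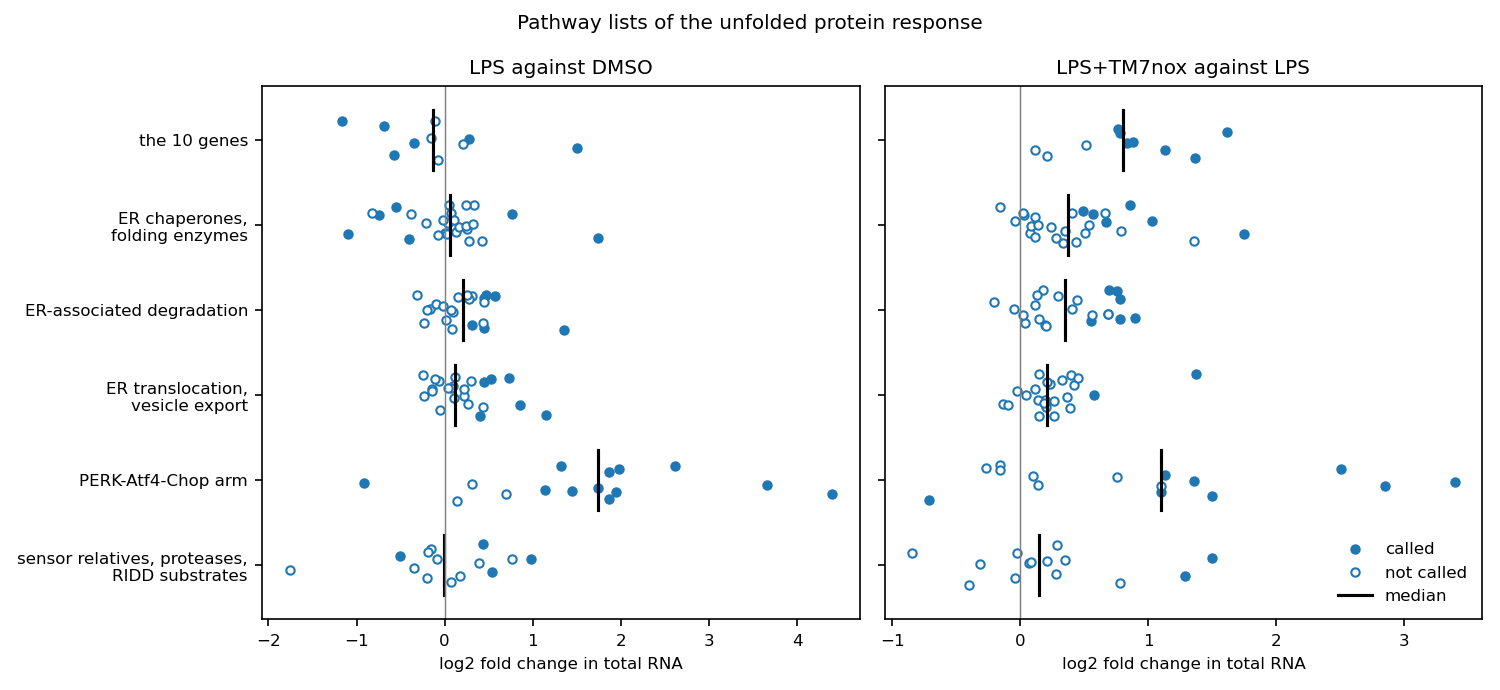
Log2 fold change in total RNA (horizontal axis) of the tested genes of each list (rows), for LPS against DMSO (left) and LPS with TM7nox against LPS (right), with filled points for called genes and black lines for list medians; vertical position within a row is arbitrary. The list around eIF2 alpha phosphorylation (PERK-Atf4-Chop arm in the plot) has the highest median of the rows in both panels, 1.73 and 1.10, and the 10 genes have a median of -0.13 in the left panel and 0.80 in the right.

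Recovery with anti-HuR relative to total RNA differed widely among the 10 genes. Pdia4, Edem1 and Sdf2l1 were recovered well above the typical gene in all 3 treatments, and Herpud1, Xbp1, Sel1l and Creld2 below it. Ern1 and Atf6 lay near the typical gene. Recovery is the ratio of RIP to total RNA on the TMM scale, so a value of 0 on the log2 scale means recovered like the typical gene and not absent from HuR. In DMSO 8 of the 10 genes were called, 4 higher and 4 lower, where 70.4% of the 14311 genes tested were called, 37% higher and 33.4% lower. In LPS 7 were called, 3 higher and 4 lower, where 63.7% of all genes were called, 32.9% higher and 30.8% lower. In LPS with TM7nox 8 were called, 4 higher and 4 lower, where 69.9% of all genes were called, 35.2% higher and 34.8% lower. The numbers called are near the shares of all genes.

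Pdia4 stood at 2506, 1779, 2971 and 1739 CPM in DMSO RIP, against 168 to 225 CPM in DMSO total RNA and 179 CPM in DMSO IgG. No RIP library came near the other 2 assays, and recovery was 3.66 ± 0.24 on the log2 scale in DMSO (edgeR adjusted p = 1.13e-12), a 12.7-fold ratio. In LPS it was 3.77 ± 0.24 and in LPS with TM7nox 3.90 ± 0.24. Edem1 stood at 861, 933, 1023 and 1067 CPM in DMSO RIP, against 164 to 187 CPM in total RNA and 149 CPM in IgG. Its recovery was 2.59 ± 0.16, 2.09 ± 0.16 and 2.55 ± 0.16 in DMSO, LPS and LPS with TM7nox. Sdf2l1 stood at 205, 149, 337 and 319 CPM in DMSO RIP against 57.1 CPM in IgG, with recoveries of 2.18 ± 0.25, 2.08 ± 0.25 and 2.11 ± 0.25.

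Herpud1 showed the opposite pattern. It stood at 9.45, 8.43, 10.0 and 8.79 CPM in DMSO RIP, below all 4 DMSO total RNA libraries and below the 31.2 CPM of IgG. Its recovery was -1.59 ± 0.22, -1.36 ± 0.22 and -1.63 ± 0.22 in the 3 treatments. Xbp1, at 28.5 to 37.7 CPM in DMSO RIP, had recoveries of -1.47 ± 0.13, -1.05 ± 0.13 and -1.36 ± 0.13. Sel1l, at 46.8 to 59.3 CPM, had recoveries of -1.42 ± 0.16, -1.05 ± 0.16 and -1.11 ± 0.16. Creld2 had recoveries of -1.05 ± 0.24, -0.58 ± 0.24 and -0.93 ± 0.24, and its LPS value (edgeR adjusted p = 0.0346) was called in 4 of 14 alternatives. It was lost with DESeq2's size factors (adjusted p = 0.105) and on leaving out any 1 of 6 libraries, LPS total RNA replicates 1, 3 or 4 or LPS RIP replicates 1, 2 or 3 (adjusted p from 0.0529 to 0.141).

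Of the sensors, Ern1 and Atf6 were not called in any treatment, and Eif2ak3 was called above the typical gene in DMSO and in LPS with TM7nox. Ern1 had recoveries of 0.31 ± 0.16, 0.07 ± 0.15 and 0.28 ± 0.15 and Atf6 of 0.13 ± 0.15, -0.12 ± 0.15 and -0.25 ± 0.15, none of them called. With DESeq2's size factors the recovery of Atf6 in LPS was 0.06 in place of -0.12, and in DMSO Ern1 and Atf6 were both called higher, at 0.44 and 0.29 (adjusted p = 0.034 and 0.0451). The same scaling also called Ern1 in LPS with TM7nox at 0.50 (adjusted p = 0.0158) and Eif2ak3 in LPS at 0.48 (adjusted p = 0.0187), and DESeq2's own test called these 4 values too. Without RIP replicate 3 of LPS with TM7nox, Ern1 was called in that treatment (adjusted p = 0.0467), and without RIP replicate 2 of LPS, Eif2ak3 was called in LPS (adjusted p = 0.0478). With the replicate block, Ern1 in DMSO was also called (adjusted p = 0.0429). Eif2ak3 had recoveries of 0.37 ± 0.16 (edgeR adjusted p = 0.0459), 0.31 ± 0.16 (adjusted p = 0.105) and 0.66 ± 0.16 (adjusted p = 0.00076). The DMSO value was lost on leaving out any 1 of 5 libraries, RNA replicates 2, 3 or 4 or RIP replicates 3 or 4 (adjusted p from 0.0944 to 0.298). With no count filter and with replicates 1 and 2 alone, edgeR did not call Eif2ak3 in LPS with TM7nox (adjusted p = 0.0814 and 0.0575). The same alternatives also lost the DMSO value (edgeR adjusted p = 0.751 and 0.866).

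**Figure D4:**
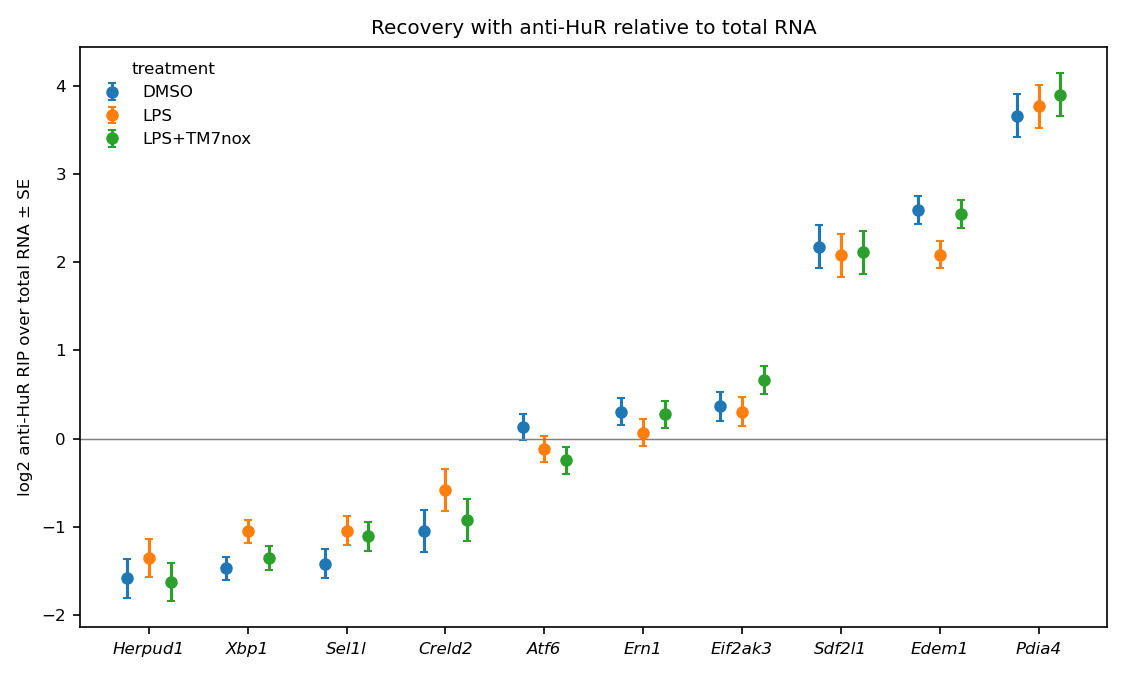
Recovery with anti-HuR as log2 of RIP over total RNA ± SE (vertical axis) for each gene, by treatment (colours), with genes ordered by their DMSO value. Pdia4, Edem1 and Sdf2l1 lie at 2.08 or above in all treatments, and Herpud1, Xbp1, Sel1l and Creld2 lie at -0.58 or below.

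The IgG pulldown recovered the 10 genes in proportions close to those of total RNA, with ratios of IgG to mean total RNA from 0.664 to 1.30. Each treatment had 1 IgG library, with counts from 235 for Eif2ak3 to 6907 for Pdia4, so these ratios carry no replicate error. Anti-HuR against IgG, with treatment as a covariate, gave 4 genes higher and 5 lower, where 68.1% of all 14973 genes tested were called, 33.8% higher and 34.2% lower. Pdia4 was higher by 3.61 ± 0.27 on the log2 scale, Edem1 by 2.41 ± 0.22, Sdf2l1 by 2.14 ± 0.25 and Eif2ak3 by 0.44 ± 0.17. Herpud1 was lower at -1.68 ± 0.17, Sel1l at -1.15 ± 0.14, Xbp1 at -0.81 ± 0.14, Creld2 at -0.70 ± 0.21 and Atf6 at -0.36 ± 0.15. Ern1 was at 0.19 ± 0.16 and not called. With the replicate block Atf6 was no longer called, at -0.26 (adjusted p = 0.172), and Ern1 was at -0.08. The calls of Eif2ak3, without the DMSO or the LPS with TM7nox IgG library (adjusted p = 0.173 and 0.121), and of Creld2, without the DMSO one (adjusted p = 0.0937), each rested on single IgG libraries. The call of Atf6 held in 9 of 20 alternatives. It was lost with DESeq2's size factors (adjusted p = 0.162), DESeq2's own test (0.131), no count filter (0.401) and replicates 3 and 4 alone (0.153), without the LPS or the LPS with TM7nox IgG library (adjusted p = 0.28 and 0.166) and without RIP replicate 2 of LPS, replicates 2 or 4 of LPS with TM7nox or replicate 3 of DMSO.

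Since HuR is known for binding U-rich RNA, the 30-base window with the most T in the 3′ UTR of each gene's canonical GENCODE M39 transcript is shown for 5 genes, Pdia4 and Sdf2l1 with high recovery and Sel1l, Xbp1 and Herpud1 with low recovery. Sequences are from GRCm39, along the gene's strand, with runs of 3 or more T in capitals.

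Pdia4, chr6:47773184-47773213, minus strand: TTTTgggtcttcTTTTTTTTTTTTTTTTTT

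Sdf2l1, chr16:16948144-16948173, minus strand: ctgctgaaaTTTTTTTTTTTTTTTTTTTTT

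Sel1l, chr12:91773884-91773913, minus strand: TTTTTgTTTTTgaagTTTTTgTTTctgatt

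Xbp1, chr11:5475725-5475754, plus strand: ggcttgTTTTcccttatgtgcaTTTTaaat

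Herpud1, chr8:95121878-95121907, plus strand: attgcTTTTTaaaatgcagtgcTTTccTTT

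For the 10 genes without Edem1, the windows held 25 T in Pdia4, 23 in Sdf2l1 and 21 in Sel1l, 19 each in Ern1, Atf6, Eif2ak3 and Creld2, and 15 each in Xbp1 and Herpud1. As many or more T were found in 9.43% of genes for Pdia4, 18.5% for Sdf2l1, 31.9% for Sel1l and 85.4% for Xbp1 and Herpud1. No order of T count against recovery is read from these genes, since Edem1, with a DMSO recovery of 2.59, is missing from them. Over 10995 genes, Spearman's rho between the T count and recovery in DMSO was 0.543, given as a description across genes, which are not independent replicates and share libraries. The 3′ UTR length gave a rho of 0.37, and the T count also rises with length, from a median of 813 bases in genes with 15 to 17 T to 2717 bases in genes with 23 to 30 T. The 3′ UTR of Sdf2l1 is 369 bases long and that of Sel1l 3807. Which 3′ ends these cells use was not tested.

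**Figure D5:**
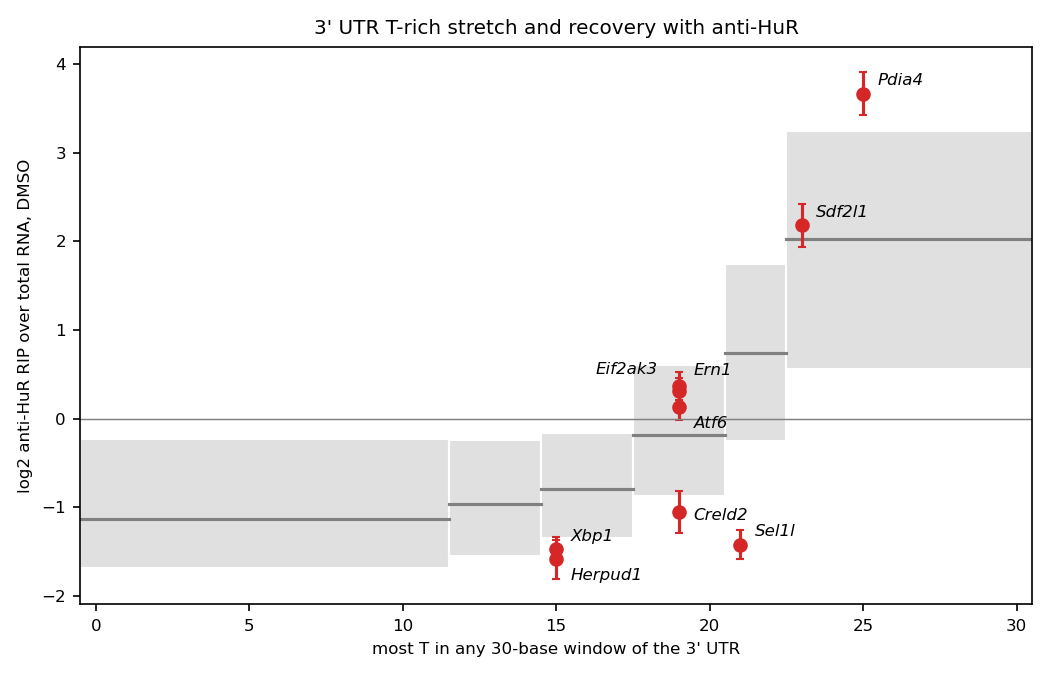
Recovery with anti-HuR in DMSO (vertical axis, log2 RIP over total RNA; red points, ± SE) against the highest number of T in any 30-base window of the 3′ UTR (horizontal axis) for the 10 genes without Edem1, with grey boxes for the middle 50% and grey lines for the median of all genes in each range of T. The median rises from -0.79 at 15 to 17 T to 2.02 at 23 to 30 T, Sel1l, Creld2, Xbp1 and Herpud1 lie below the box for their T count, and Pdia4 lies above its box.

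The treatments moved the RNA recovered with anti-HuR as well. LPS raised 3 of the 10 genes in RIP and lowered 4, where 44.7% of the 13614 genes tested were called, 23.5% higher and 21.2% lower. Herpud1 stood at 32.0, 22.4, 40.6 and 37.5 CPM in LPS RIP, all above its DMSO RIP range, a log2 fold change of 1.83 ± 0.23 (edgeR adjusted p = 1.15e-05). Xbp1 stood at 53.6, 49.7, 54.6 and 64.7 CPM, again above all DMSO RIP libraries, with 0.81 ± 0.16 (edgeR adjusted p = 0.00062). Creld2 rose by 0.79 ± 0.25, a call lost without DMSO RIP replicate 2 or LPS RIP replicate 4 (adjusted p = 0.0701 and 0.0721). The factors of the TMM scale ran from 0.938 to 0.988 in DMSO RIP and from 0.554 to 0.66 in LPS RIP. A lower factor gives a higher CPM, so the changes are relative to the typical gene. As shares of library totals without the factor, Xbp1 and Creld2 overlapped between the groups and Herpud1 did not. In DMSO RIP replicate 1, Xbp1 held 1114 and Creld2 1272 of 31320449 counts. In LPS RIP replicate 2 they held 946 and 858 of 32913122. Eif2ak3 fell by 1.09 ± 0.18, Edem1 by 0.73 ± 0.19, Atf6 by 0.71 ± 0.15 and Sdf2l1 by 0.68 ± 0.24 on the log2 scale. The call of Sdf2l1 was lost without LPS RIP replicates 1, 2 or 4 or DMSO RIP replicates 3 or 4 (adjusted p from 0.0588 to 0.0875). Sel1l, at 61.7 to 84.6 CPM, lay above its DMSO RIP range with 0.42 ± 0.17 but missed the threshold (edgeR adjusted p = 0.0546), and with the replicate block it passed (adjusted p = 0.00715).

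TM7nox against LPS raised 7 of the 10 genes in RIP and lowered 0, where 16.2% of all genes were called, 8.64% higher and 7.61% lower. Without LPS RIP replicate 1, 5 of the 10 were called, and 10.7% of all genes. As in total RNA, replicate 2 stood low in RIP. It held the lowest RIP level of its group for 7 of the 10 genes in LPS with TM7nox and for 6 in LPS. The groups did not overlap for 7 of the 10 genes, all higher, against 10.4% of all genes apart in that direction. Ern1 stood at 49.0, 47.5, 38.2 and 51.1 CPM against 16.2, 17.4, 12 and 15.8 CPM in LPS RIP. The groups lay far apart, with a log2 fold change of 1.55 ± 0.17 (edgeR adjusted p = 2.31e-05). Herpud1 rose by 1.32 ± 0.23 and Eif2ak3 by 1.10 ± 0.18, while Atf6 rose by 0.98 ± 0.15 and Sel1l by 0.81 ± 0.17. Pdia4 stood at 4664, 3973, 5906 and 3839 CPM against 2247, 1936, 3584 and 1903 CPM, with 0.88 ± 0.24. The call of Pdia4 was lost without LPS RIP replicates 1 or 4 or LPS with TM7nox RIP replicate 3 (adjusted p = 0.0521, 0.057 and 0.0599). Edem1 stood at 826, 1050, 768 and 1216 CPM against 561, 684, 599 and 533 CPM and rose by 0.66 ± 0.19 (edgeR adjusted p = 0.0251). That call was lost without LPS RIP replicates 1, 3 or 4 or LPS with TM7nox RIP replicates 2 or 4 (adjusted p from 0.0587 to 0.0832). Sdf2l1 at 0.52 ± 0.24, Creld2 at 0.47 ± 0.25 and Xbp1 at -0.20 ± 0.16 did not pass the test, and with the replicate block Sdf2l1 (adjusted p = 0.0234) and Creld2 (adjusted p = 0.0102) did. Against DMSO, 6 genes were higher in LPS with TM7nox RIP and 0 lower, where 48.1% of all genes were called, 25.1% higher and 23.1% lower.

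Whether recovery itself changed with treatment was tested as the difference between the change in RIP and the change in total RNA. For LPS 0 of the 10 genes were called, where 0.0419% of all 14311 genes were, 0.014% higher and 0.028% lower, and for TM7nox 0 of 10, where 0.00699% of all genes were called, all higher. DESeq2 also called 0 of 10 in each, where it called 0.461% of all genes for LPS and 0.021% for TM7nox. With the replicate block 0 of 10 were called in each, and 0.349% and 0.014% of all genes. Leaving out 1 library at a time, edgeR called from 0.027% of all genes for LPS, without LPS total RNA replicate 3, to 0.0746%, without DMSO total RNA replicate 1, and for TM7nox up to 0.0203%, without LPS RIP replicate 3, and 0.0135% without LPS with TM7nox RIP replicate 1. At an unadjusted p under 0.05 in edgeR there were 2 genes for LPS, Edem1 at -0.50 ± 0.21 and Xbp1 at 0.42 ± 0.19, and 1 for TM7nox, Edem1 at 0.46 ± 0.21. The 95% intervals of the difference ran from -0.94 at the lowest to 1.16 at the highest for LPS and from -1.03 to 0.90 for TM7nox over the 10 genes. For 9 of the 10 genes in each case the interval lay within 1 on the log2 scale. The missed threshold does not show that recovery stayed the same.

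Across the 12 total RNA libraries the genes fell into different patterns, described by Pearson's r of log2(CPM + 1), which reflects the 3 treatments as well as the replicates. Pdia4, Creld2 and Sel1l were most alike, with r = 0.949 for Pdia4 and Sel1l and 0.946 for Creld2 and Sel1l. Xbp1 and Eif2ak3 were least alike, with r = -0.51. Among 8234 other genes, Hyou1, an ER chaperone, was most like Pdia4 (r = 0.968), Dnajc1 most like Xbp1 (0.933), Gclm most like Ern1 (0.974) and Mgat4b most like Atf6 (0.977). Csgalnact2 was most like Eif2ak3 (0.963), Tcirg1 most like Herpud1 (0.987), Nipal3 most like Edem1 (0.936), Herc2 most like Sdf2l1 (0.99), Tbc1d10a most like Creld2 (0.958) and Amotl1 most like Sel1l (0.967).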

How the data were processed

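The authors deposited unnormalized read counts per gene for 27 libraries (12 total RNA, 12 anti-HuR RIP, 3 IgG). The submitters' processing notes name FastQC 0.11.9, STAR, HTSeq, DESeq2 and build GRCm39 with no roles; no annotation release or strand setting is given there or in the labels. Per the labels' protocols, libraries were made from 7 ng of RNA with a stranded kit. No molecular identifiers are stated, so reads are not independent molecules.

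The test was edgeR 4.0.16's, run in R 4.3.3 (TMM scaling, a minimum count of 10, quasi-likelihood F test, Benjamini-Hochberg over all genes tested, threshold 0.05). Total RNA and RIP had a model each, RIP over RNA a joint model of 24 libraries, and IgG a model of 15 libraries. SE is the log2 fold change divided by the root of F. The statistics were tested on simulated data. Exon lengths, merged over all transcripts of a gene, came from GENCODE M39, to which 93.2% of identifiers matched. Alternatives were DESeq2 1.42.0 (Wald test), its size factors, no count filter, the replicate block, replicates 1 and 2 or 3 and 4 alone, and leaving out each library.

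Replicate numbers, given by the labels, were taken to pair the samples: same-numbered libraries deviated together in all 36 comparisons (r from 0.269 to 0.645). The main tests have no block; a blocked value is given where it changed a call.

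Text names all 10 members and, per pathway list, up to 2 higher and 2 lower called genes with the largest change and a mean of at least 5 CPM, with Hspa5, Dnajb9, Atf4 and Ddit3 always. Likeness was ranked over genes with a mean of at least 5 CPM. Members and lists were chosen with earlier results of these data known. Protein sequences were not analysed here, and the 3′ UTR window of Edem1 is not reported here.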

Additional observations from a re-analysis of the deposited data

Results flagged for a closer look

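In 5 of 60 groups of 4 libraries, 1 library stood apart from the other 3, by a gap larger than Dixon's 95% critical value for the group's range, which chance passes in about 1 in 20 groups. In total RNA of LPS with TM7nox, replicate 2 was low for Pdia4, at 206.456 CPM against 325.2 to 339.5, and for Sel1l, at 192.032 CPM against 299.8 to 306.9. Without this library both genes were still called higher than in LPS. In RIP, Sdf2l1 was high in LPS replicate 3, at 222.631 CPM against 130.3 to 143. Xbp1 was high in DMSO RIP replicate 1, at 37.7123 CPM against 28.53 to 29.63. Atf6 was low in DMSO RIP replicate 4, at 111.584 CPM against 122.5 to 124.4.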

How the results depend on the processing

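No called value of the 10 genes changed sign in any alternative, and leaving out single libraries moved no total of the 10 genes called in a comparison by over 1.5 times. By direction, the 2 higher with LPS in total RNA became 1 on losing Xbp1, and the 1 lower in LPS with TM7nox against DMSO became 0 on losing Eif2ak3, each on leaving out any 1 of 7 libraries. With replicates 1 and 2 alone, the genes called fell from 6 to 2 for LPS against DMSO in total RNA, from 7 to 1 for TM7nox against LPS, from 8 to 2 for LPS with TM7nox against DMSO, and in RIP from 7 to 3 for LPS against DMSO and from 7 to 4 for TM7nox against LPS. The shares of all genes called in total RNA fell in the same order, from 42% to 13.4%, 13.8% to 1.35% and 47.3% to 18%. In RIP they fell from 44.7% to 24% and from 16.2% to 5.59%. Replicates 3 and 4 alone, a split of the same size, called 58.7%, 27.9% and 63.3% in total RNA, and 40.7% and 7.87% in RIP. Both splits have fewer samples than the main tests, and why they differ was not tested. The calls changed by the replicate block, with the numbers taken to pair the libraries, are given beside their results, and the block changed no other call; its one change of sign was Ern1 in anti-HuR against IgG, at -0.0772 against 0.19.

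Values that changed sign were all uncalled, and the cause was not tested. With replicates 1 and 2 alone these were Sel1l in RNA with LPS (0.0492), Sdf2l1 in LPS with TM7nox against DMSO in RNA (0.141) and RIP (0.223), Pdia4 in RIP with LPS (-0.0741), the change of recovery with LPS of Eif2ak3 (0.132) and Herpud1 (-0.212), and that with TM7nox of Sel1l (0.138). With replicates 3 and 4 alone they were Eif2ak3 in RIP of LPS with TM7nox against DMSO (-0.0624), the DMSO recovery of Atf6 (-0.00297) and the change with TM7nox of Sdf2l1 (-0.00864). With no count filter they were the same Eif2ak3 contrast (-0.00317), the recovery of Atf6 in DMSO (-0.0885) and Ern1 in LPS (-0.0173), the change with LPS of Eif2ak3 (0.112) and Sdf2l1 (0.0446), and that with TM7nox of Sdf2l1 (-0.084). With DESeq2's size factors and its Wald test they were that Eif2ak3 contrast (-0.00744 and -0.00798) and the LPS recovery of Atf6 (0.0626 in both).

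Leaving out 1 library at a time, the ranges that crossed 0 were -0.232 to 0.00022 for Ern1 in RNA with LPS, -0.179 to 0.178 for Pdia4 in RIP with LPS, and, in RIP of LPS with TM7nox against DMSO, -0.124 to 0.113 for Eif2ak3 and -0.239 to 0.0508 for Edem1. Recovery ran from -0.0357 to 0.202 for Atf6 in DMSO and from -0.00872 to 0.176 for Ern1 in LPS. The change of recovery with LPS ran from -0.126 to 0.151 for Eif2ak3, -0.274 to 0.157 for Sdf2l1 and -0.0265 to 0.367 for Pdia4. The change with TM7nox ran from -0.0619 to 0.245 for Sdf2l1, -0.00661 to 0.397 for Pdia4 and -0.192 to 0.0857 for Sel1l. Depth limits DMSO total RNA replicate 1 most.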
